A study of Mus musculus with 4 samples.

Results

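Motile cilia genes, which build and control the beating cilia of the ependyma and the choroid plexus, were followed at embryonic day 15 (E15) in the cerebral cortex of mice of the C57BL/6 strain, in Prdm16cKO embryos (cKO, a conditional knockout of Prdm16) and in Prdm16fl/fl embryos (floxed, carrying the floxed alleles without a named deletion). Members were chosen by gene symbol among the protein-coding genes listed in both deposited tables. The names belong to axonemal dyneins (Dnah, Dnai and Dnaic), radial spoke heads (Rsph), tektins (Tekt), cilia and flagella associated proteins (Cfap) and Hydin. They also take in the Spag6, Spag16 and Spag17 names, 6 Ccdc genes of the axoneme, and the regulators Foxj1, Rfx2, Rfx3, Mcidas and Gmnc. The rule found 66 genes of the 19968 in both tables. It set no threshold on level, but being listed in both tables may depend on counts. A further 4 genes with matching names were listed in 1 table only. The tables hold 2 cKO libraries, called cKO 1 and cKO 2 here, and 1 floxed library that serves both comparisons. The title of 1 sample in each group carries the word Blood, which no label explains, and the columns do not show which library that is. The labels name neither the Cre line nor the deleted exon, and no source used here says that the cKO libraries came from separate embryos, so a p-value reflects no more than how these libraries varied, and that variation may be technical.

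A motile cilium is a ring of microtubule doublets around a central pair, with dynein arms that slide the doublets, radial spokes that carry signals from the centre, and linkers that hold the parts in register. In multiciliated cells the coiled-coil regulators Gmnc and Mcidas act early, and the forkhead factor Foxj1 and the RFX factors, which bind the X-box element, switch on the structural genes. In the embryonic forebrain the choroid plexus epithelium carries many cilia per cell, and radial glia carry a single primary cilium that is not built for beating.

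The cKO 1, cKO 2 and floxed libraries held 19518174, 18581791 and 17841685 reads by the authors' totals, and levels are counts scaled to these totals (CPM). Prdm16 itself had 34.6 CPM in cKO 1 and 24.1 CPM in cKO 2, against 30.2 CPM in floxed, so the library labelled cKO 1 had more Prdm16 reads than floxed. Which exons were removed is not stated, and the counts are per gene, not per exon. The cause of these Prdm16 levels was not tested. The library labelled cKO 2 stood apart in markers of other cell types. The 11 meningeal markers summed to 734 CPM in cKO 1 and 22.4 CPM in cKO 2, against 459 CPM in floxed, and the 6 endothelial markers to 273 CPM in cKO 1 and 132 CPM in cKO 2, against 222 CPM in floxed. The 8 radial glia markers summed to 2333 CPM in cKO 1 and 2299 CPM in cKO 2, against 1705 CPM in floxed, and the 8 cortical neuron markers lay between 6742 and 6857 CPM in the 3 libraries. The part of these cell types in the results was not tested. Each result below is therefore given for cKO 1 and for cKO 2 apart.

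The X-box is shown here because Rfx2 and Rfx3 are members and bind it. RefSeq promoter windows (GRCm38.p6, 250 bases before to 50 bases after a start site) were found for 56 of the 66 members, 64 windows in all. The pattern of GTTNCC and GNAAC with NNN between them, searched on both strands, stood in windows of 7 members, or 12.5% of the 56 (10.9% of their 64 windows), and in 0.804% of all 32851 windows. A looser pattern that contains it, with GTNNCC in place of GTTNCC, stood in windows of 11 members (17.2% of their windows) and in 2.17% of all windows, and the forkhead core GTAAACA in windows of 3 members, Cfap20, Cfap43 and Dnah17 (4.69% of member windows), and in 3.65% of all. The spellings were picked after several had been compared, and a match is a run of letters, not a measured binding site. The 7 matches are given on the strand of the gene with 8 bases on either side and the matched letters in capitals. The windows that hold them are chr9:22002585-22002884 (Ccdc151, minus strand), chr2:145934534-145934833 (Cfap61), chr8:110266727-110267026 (Hydin), chr1:69826720-69827019 (Spag16) and chr17:25471340-25471639 (Tekt4), on the plus strand but for Ccdc151, and those of Cfap44 and Cfap45 are given with their full sequence.
Ccdc151: cgcgggcgGTTTCCTTGGGAACgtgggcgg
Cfap44: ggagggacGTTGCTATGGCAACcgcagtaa
Cfap45: gttcttggGTTGCTATGGTAACgcgtcagc
Cfap61: gccgcgtcGTTTCCTTAGCAACtgtgtgcg
Hydin: actctgcgGTTGCTGTGGCAACagatggta
Spag16: ggcaacgcGTTGCCGTAGTAACtgcggacg
Tekt4: tatacaatGTTCCTTAGGCAACcaggaacc
In Cfap44, Cfap45, Hydin and Tekt4 the pattern lies on the strand opposite to the gene. The match of Tekt4 begins at the start site itself, that of Spag16 lies at bases -103 to -90 counted from the start as 0, and the others begin between bases -34 and -8. The whole windows of Cfap44 (chr16:44394549-44394848, plus strand) and Cfap45 (chr1:172520880-172521179, plus strand) are shown whole as examples of the sequence around a match. Both genes had ratios below 1 in cKO 2 with intervals that left out 1, as did Tekt4. The intervals of Ccdc151, Cfap61, Hydin and Spag16, which also carry a match, included 1 in cKO 2. In cKO 1 the ratio to floxed was 1.56 for Cfap44 and 0.705 for Cfap45. A link between a match and the level in cKO 2 was not tested.
Cfap44: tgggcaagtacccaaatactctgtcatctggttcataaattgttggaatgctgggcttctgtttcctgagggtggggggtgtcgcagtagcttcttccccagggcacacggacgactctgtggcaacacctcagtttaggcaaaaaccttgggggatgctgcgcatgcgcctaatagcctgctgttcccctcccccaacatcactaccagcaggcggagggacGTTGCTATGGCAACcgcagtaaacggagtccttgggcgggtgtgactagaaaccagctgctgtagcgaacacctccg
Cfap45: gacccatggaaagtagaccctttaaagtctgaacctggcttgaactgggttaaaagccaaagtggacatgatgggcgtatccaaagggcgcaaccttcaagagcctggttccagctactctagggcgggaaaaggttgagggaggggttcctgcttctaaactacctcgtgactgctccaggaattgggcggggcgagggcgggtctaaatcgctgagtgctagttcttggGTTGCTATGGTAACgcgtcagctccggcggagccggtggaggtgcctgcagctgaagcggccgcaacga

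The members were expressed at low levels in all 3 libraries. Their median was 2.84 CPM in cKO 1 and 1.61 CPM in cKO 2, against 2.69 CPM in floxed, where the median tested gene had 18.9 CPM. Levels under 1 CPM were found for 10 members in cKO 1 and 19 in cKO 2, against 10 in floxed. Per kilobase of exon, the scale on which genes can be compared, and ordered by the mean over the 3 libraries, Cfap36 was highest (22.9, 24.1 and 20.4 CPM per kb in cKO 1, cKO 2 and floxed), followed by Cfap20 (14.0, 16.4 and 13.3), Foxj1 (10.8, 9.13 and 10.6) and Rsph9 (8.28, 8.23 and 9.13). Cfap36 binds the small GTPase Arl3 and Cfap20 also sits at centrioles and primary cilia, so the highest ranks are held by genes that are not restricted to beating cilia. Rfx3, Rsph3a and Tekt1 followed by this mean, between 3.42 and 4.44 CPM per kb, and their order differed between libraries. Cfap126, with 3.87 CPM per kb in cKO 1 and 1.27 in cKO 2, against 3.54 in floxed, lay among them in cKO 1 and floxed but not in cKO 2. The lowest means belonged to the dynein heavy chains Dnah8 (0.0650, 0.0441 and 0.0648 CPM per kb in cKO 1, cKO 2 and floxed), Dnah5 (0.0459, 0.0172 and 0.0358) and Dnah14 (0.0410, 0.0199 and 0.0207). Within single libraries Dnah11 (0.00744 CPM per kb in cKO 2), Cfap58 (0 in cKO 2) and Cfap99 (0 in cKO 1) lay lower still.

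**Figure D1:**
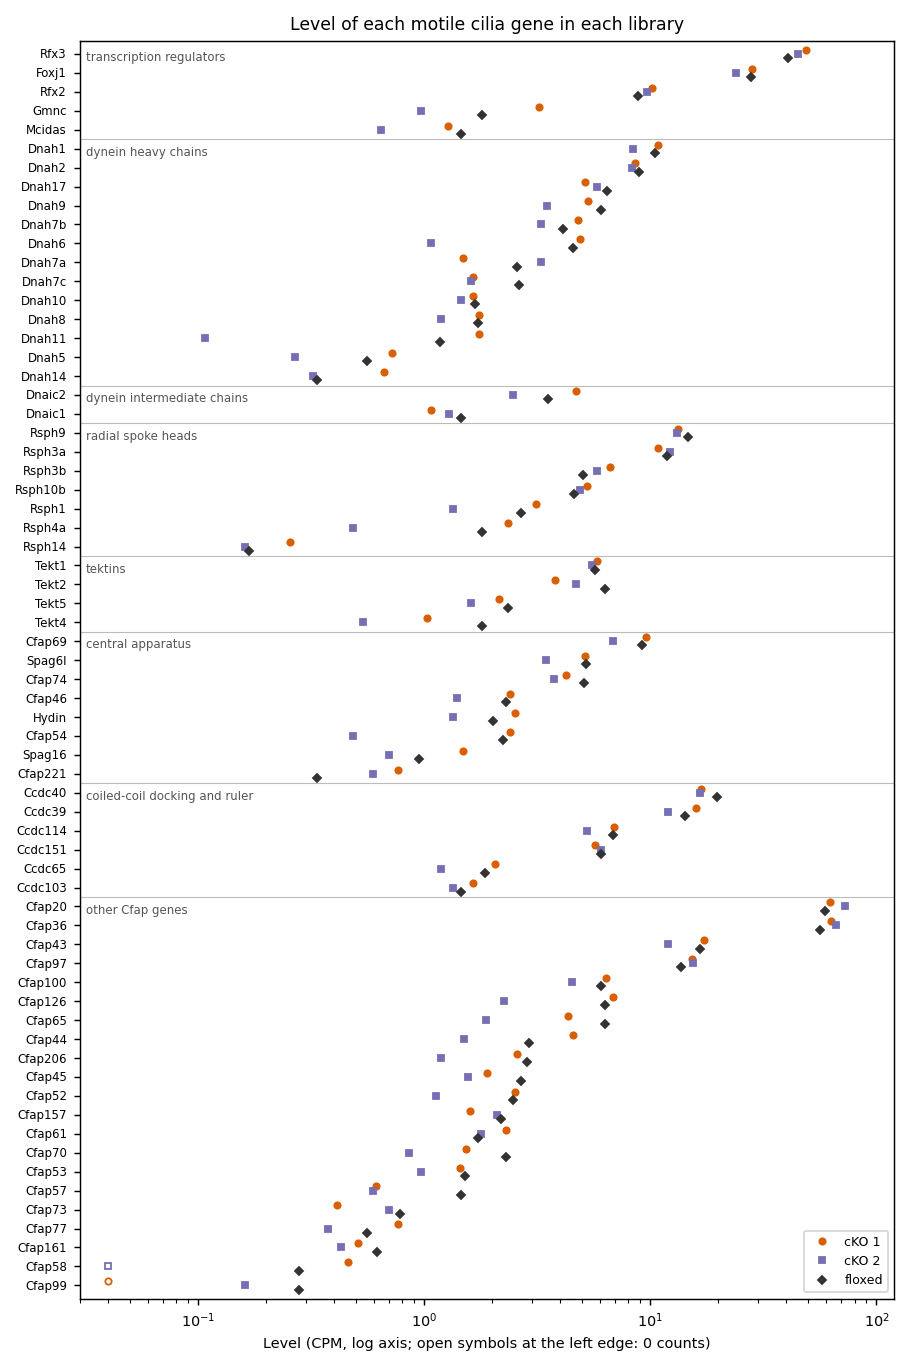
Level of each of the 66 motile cilia genes in CPM (log axis) in the cKO 1, cKO 2 and floxed libraries, grouped by role and ordered by mean level within a role; each symbol is 1 library, and open symbols at the left edge mark 0 counts. Squares for cKO 2 lie left of both other symbols for genes such as Dnah6, Dnah11, Rsph4a, Cfap54 and Cfap126, while Cfap20, Cfap36 and Rfx3 lie near or above the floxed level in both cKO libraries.

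Many axonemal genes had lower levels in cKO 2 than in floxed, while cKO 1 lay close to floxed. Of the 66 members 63 passed the expression filter. Their median log2 fold (scaled to library totals, prior count of 2) was 0.04 in cKO 1 and -0.42 in cKO 2, against 0.01 and -0.04 over all 16725 genes tested. A ratio was counted as beyond counting error when its exact 95% interval left out 1. In cKO 2, 51 of 63 members had fewer CPM than floxed (81%, against 56.5% of all genes), and in cKO 1 26 had (41.3%, against 47.6%). In cKO 2, 25 of 63 members were lower than floxed by this measure (39.7%, against 24.5% of all genes) and 3 were higher (4.76%, against 16.1%). With TMM scaling, the normalization of the edgeR fit, 19 were lower (30.2%, against 19.9% of all genes) and 3 higher (4.76%, against 21%), and the 6 that no longer counted as lower were Ccdc40, Dnah1, Dnah7c, Foxj1, Gmnc and Tekt2. In cKO 1, 6 were lower (9.52%, against 16% of all genes) and 4 higher (6.35%, against 17.8%). By over 2-fold on the same log2 scale, 12 members were lower in cKO 2 (19%, against 6.72%) and 0 higher (against 1.54%), and in cKO 1 1 member, Cfap57, was lower (1.59%, against 1.54%) and 0 higher (against 2%). Among genes with at least 30 counts in the highest library, 10 of 52 members were lower by over 2-fold in cKO 2 (19.2%, against 4.51%) and 23 lower beyond counting error (44.2%, against 26.4%). In cKO 1 these counts were 0 (against 0.407%) and 5 (9.62%, against 17.8%). A gene can pass this filter through cKO 1 or floxed alone, as Dnah11 did with 34, 2 and 21 counts in cKO 1, cKO 2 and floxed. The filter therefore sets no floor on counts in cKO 2, for the members or for all genes. For members with a mean of at least 50 counts the median in cKO 2 was -0.26.

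The fit over both cKO libraries called no member. The edgeR quasi-likelihood test, adjusted over all 16725 genes by Benjamini-Hochberg, called 0 of 63 members at an adjusted p under 0.05, against 0% of all genes, and 0 at an unadjusted p under 0.05, against 1.3%. DESeq2 also called 0 members (0.0299% of all genes), as did limma-voom (0%), and neither gave a member an unadjusted p under 0.05 (0.586% and 1.23% of all genes). The smallest unadjusted edgeR p of a member was 0.104, for Cfap57, and every member had an adjusted p of 1. The test has 1 residual degree of freedom, and the floxed library was assumed to vary like the cKO libraries. The median fitted log2 fold was -0.17, and without cKO 2 it was 0.04. In the authors' deposited tables, which compare 1 library with 1 library, 12 members were marked significant and lower in cKO 2 (5.8% of all genes were) and 1, Cfap57, in cKO 1 (0.942%), while 0 were marked higher in cKO 2 (1.04%) or in cKO 1 (1.31%).

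**Figure D2:**
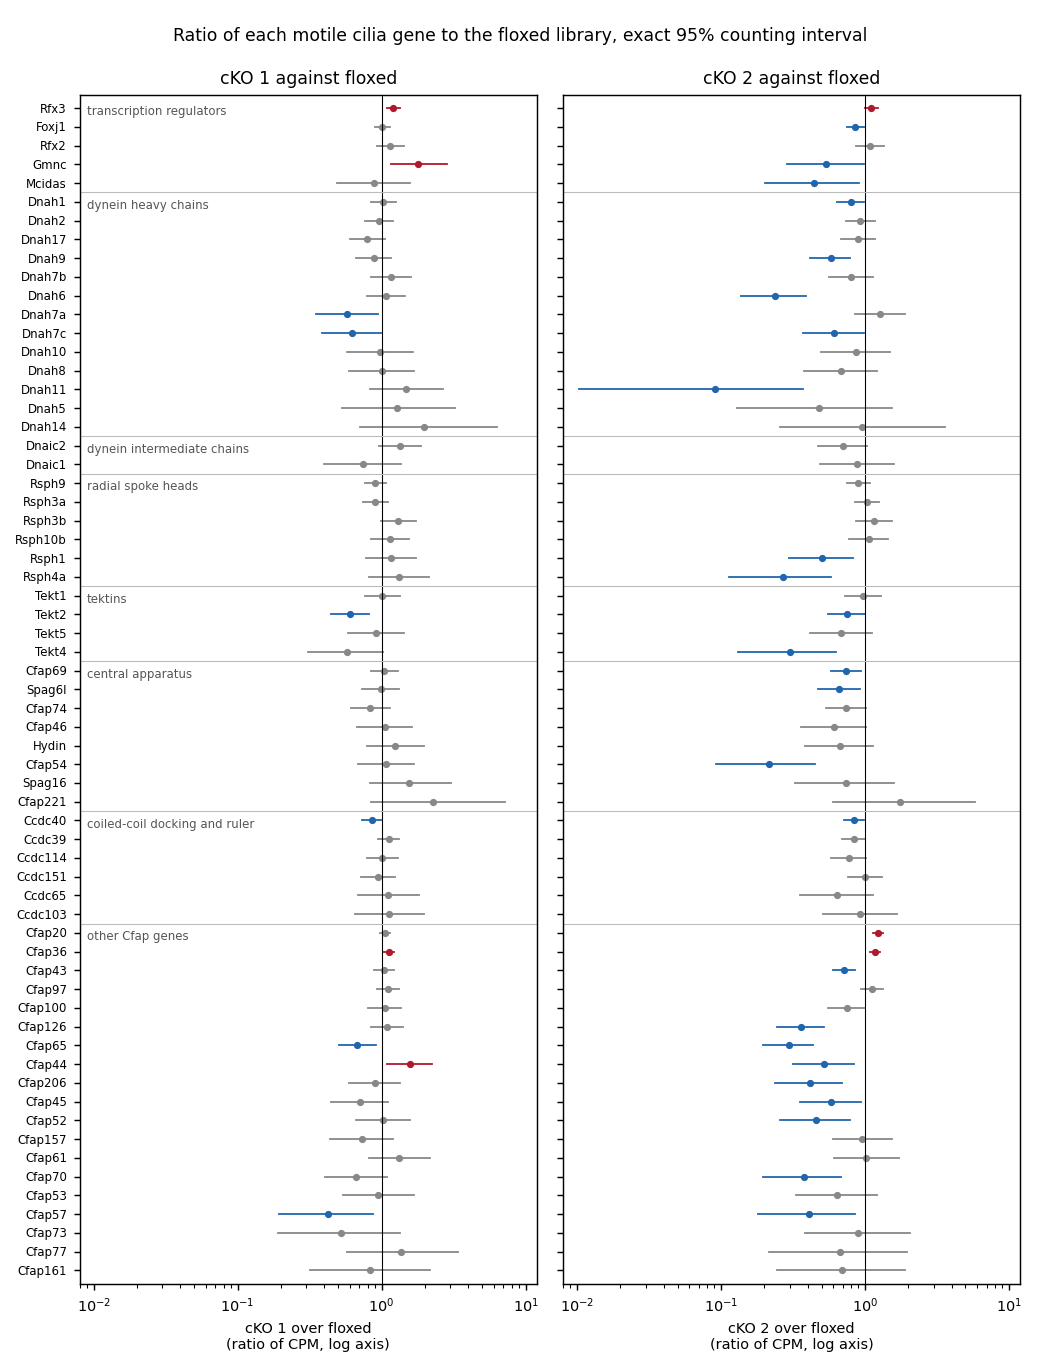
Ratio of CPM to the floxed library for the 63 tested motile cilia genes (log axis), for cKO 1 on the left and cKO 2 on the right, with exact 95% counting intervals; blue intervals lie below 1, red ones above 1 and grey ones include 1. Blue intervals number 6 for cKO 1 and 25 for cKO 2, and red ones 4 and 3.

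The regulators at the head of the programme did not move as a block. Foxj1, the forkhead factor that drives motile cilia (ENSMUSG00000034227, GRCm38 chromosome 11, 116330704 to 116335399, minus strand), had 28.2 CPM in cKO 1 and 23.9 CPM in cKO 2, against 27.9 CPM in floxed. Its ratio to floxed was 1.01 in cKO 1 (exact 95% interval 0.896 to 1.15) and 0.860 in cKO 2 (0.755 to 0.979), so the interval left out 1 in cKO 2 alone, and with TMM scaling it included 1 there as well (0.777 to 1.01). Rfx3, an X-box factor needed for cilia in brain and pancreas, had 49.0 CPM in cKO 1 and 45.0 CPM in cKO 2, against 40.5 CPM in floxed, and its ratio was 1.21 (1.10 to 1.33) in cKO 1 and 1.11 (1.004 to 1.23) in cKO 2. Both cKO libraries thus lay above floxed for Rfx3, with a cKO mean of 47.0 ± 2.82 CPM (SD, n = 2) and the fit gave a log2 fold of 0.23 (SE 0.13, edgeR adjusted p = 1). Rfx2, its relative, had 10.1 CPM in cKO 1 and 9.63 CPM in cKO 2, against 8.86 CPM in floxed, and both intervals included 1.

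Gmnc and Mcidas, the early coiled-coil regulators, were the lowest of these genes. Gmnc had 63 counts in cKO 1 and 18 in cKO 2, against 32 in floxed, or 3.23 CPM in cKO 1 and 0.969 CPM in cKO 2, against 1.79 CPM in floxed. Its ratio was 1.80 in cKO 1 (1.16 to 2.85) and 0.540 in cKO 2 (0.285 to 0.992), so the cKO libraries lay on opposite sides of floxed, but with TMM scaling the interval in cKO 2 included 1 (0.294 to 1.02). Mcidas had 25 counts in cKO 1 and 12 in cKO 2, against 26 in floxed, with a ratio of 0.879 in cKO 1 (0.487 to 1.58) and 0.443 in cKO 2 (0.204 to 0.910). Other regulators of multiciliation stood on a list of 15 genes, of which 14 were tested, with medians of 0.05 in cKO 1 and -0.04 in cKO 2. Beyond counting error 1 was higher and 2 lower in cKO 1 (14.3% lower, against 16% of all genes), and 1 was higher and 4 lower in cKO 2 (28.6% lower, against 24.5%). Deup1, which organizes the deuterosomes that multiply centrioles, had 1.79 CPM in cKO 1 and 0.646 CPM in cKO 2, against 1.74 CPM in floxed. Trp73, which also marks Cajal-Retzius neurons, had 30.1 CPM in cKO 1 and 36.1 CPM in cKO 2, against 29.9 CPM in floxed.

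Dynein heavy chains are the motors of the arms. Over the 13 members the summed level was 49.1 CPM in cKO 1 and 38.6 CPM in cKO 2, against 51.3 CPM in floxed. Chains below floxed beyond counting error numbered 2 in cKO 1 (15.4%, against 16% of all genes) and 5 in cKO 2 (38.5%, against 24.5%). With TMM scaling, Dnah1 and Dnah7c no longer counted as lower in cKO 2, where 19.9% of all genes did. Dnah6, an inner arm chain, had 95 counts in cKO 1 and 20 in cKO 2, against 81 in floxed, or 4.87 CPM in cKO 1 and 1.08 CPM in cKO 2, against 4.54 CPM in floxed. Its ratio was 1.07 (0.789 to 1.46) in cKO 1 and 0.237 (0.138 to 0.391) in cKO 2. Dnah11, an outer arm chain needed for left-right asymmetry, had 34 counts in cKO 1 and 2 in cKO 2, against 21 in floxed, with ratios of 1.48 (0.835 to 2.68) in cKO 1 and 0.0914 (0.0104 to 0.374) in cKO 2. For Dnah6 and Dnah11 cKO 1 was near or above floxed and cKO 2 far below it. The outer arm chain Dnah9 followed in the same direction, with 5.33 CPM in cKO 1 and 3.5 CPM in cKO 2, against 6.05 CPM in floxed.

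The most abundant heavy chains were flatter. Dnah1, an inner arm chain, had 10.9 CPM in cKO 1 and 8.40 CPM in cKO 2, against 10.54 CPM in floxed, and its ratio in cKO 2 was 0.797 (0.640 to 0.9904), or 0.821 (0.659 to 1.02) with TMM scaling. Dnah2, also of the inner arms, had 8.56 CPM in cKO 1 and 8.29 CPM in cKO 2, against 8.91 CPM in floxed, with both intervals including 1. Dnah17 and Dnah8, outer arm chains known from sperm flagella, had ratios of 0.902 and 0.681 in cKO 2, and both intervals included 1. Dnah5, Dnah10, Dnah14 and Dnah7b also had intervals that included 1 in both cKO libraries, on 5 to 93 counts. The copies Dnah7a, Dnah7b and Dnah7c lie on chromosome 1 and share sequence: 38.6%, 30.05% and 46.8% of their stretches of 50 bases also occur in another gene. Dnah7a had ratios of 0.576 (0.349 to 0.937) in cKO 1 and 1.27 (0.854 to 1.91) in cKO 2, and Dnah7c of 0.622 (0.384 to 0.996) in cKO 1 and 0.613 (0.374 to 0.989) in cKO 2, but how reads were divided between the copies is uncertain. With TMM scaling the interval of Dnah7c in cKO 2 included 1 (0.386 to 1.02). The intermediate chain genes Dnaic1 and Dnaic2, which anchor the outer arm motor, summed to 5.79 CPM in cKO 1 and 3.77 CPM in cKO 2, against 4.99 CPM in floxed, and none of their intervals left out 1.

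**Figure D3:**
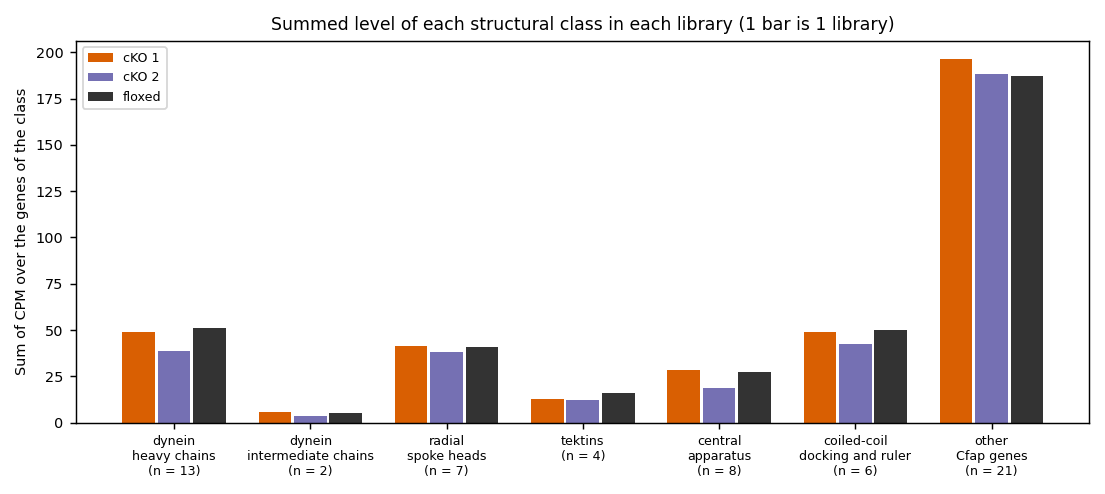
Sum of CPM over the genes of 7 structural classes (bars start at 0) in the cKO 1, cKO 2 and floxed libraries; 1 bar is 1 library, so no error can be drawn. The cKO 2 bar is the lowest of the 3 in each class but the other Cfap genes, where cKO 2 (188 CPM) stands just above floxed (187 CPM), and the central apparatus has 18.6 CPM in cKO 2 against 27.4 CPM in floxed.

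Radial spoke genes were split. Rsph4a, a spoke head protein of cilia, had 46 counts in cKO 1 and 9 in cKO 2, against 32 in floxed, with ratios of 1.31 (0.819 to 2.13) in cKO 1 and 0.270 (0.113 to 0.579) in cKO 2. Rsph1, another head protein, had 3.13 CPM in cKO 1 and 1.35 CPM in cKO 2, against 2.69 CPM in floxed, with a ratio of 0.50 (0.295 to 0.827) in cKO 2. The third head protein, Rsph9, had 13.3 CPM in cKO 1 and 13.2 CPM in cKO 2, against 14.6 CPM in floxed. Thus 2 of the 6 tested spoke genes, both of the head, were lower beyond counting error in cKO 2 (33.3%, against 24.5% of all genes). In cKO 1 0 were (against 16%). Rsph9 had ratios of 0.907 (0.761 to 1.08) in cKO 1 and 0.901 (0.754 to 1.08) in cKO 2. The stalk genes Rsph3a (10.8 and 12.2 CPM in cKO 1 and cKO 2, against 11.9 CPM in floxed) and Rsph3b (6.61 and 5.81 CPM, against 5.04 CPM) are copies on chromosome 17, with 58.1% and 69.2% of their stretches shared, and their split is uncertain. Rsph10b had 5.23 CPM in cKO 1 and 4.90 CPM in cKO 2, against 4.6 CPM in floxed, and Rsph14, with 5 counts in cKO 1 and 3 in cKO 2, against 3 in floxed, was not tested.

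Tektins form filaments inside the doublet wall. Tekt1 had 5.79 CPM in cKO 1 and 5.54 CPM in cKO 2, against 5.72 CPM in floxed. Tekt2 had 74 counts in cKO 1 and 87 in cKO 2, against 112 in floxed, and its ratio was 0.604 (0.444 to 0.817) in cKO 1 and 0.746 (0.557 to 0.996) in cKO 2. With TMM scaling the interval in cKO 2 included 1 (0.574 to 1.03). Both cKO libraries lay below floxed for Tekt2, with a mean of 4.24 ± 0.630 CPM (SD, n = 2) and the fit gave a log2 fold of -0.55 (SE 0.35, edgeR adjusted p = 1). The kit does not mark strand, and 20.8% of the exon bases of Tekt2 lie in exons of the antisense gene Gm12945. Tekt4, whose start carries an X-box match, had 20 counts in cKO 1 and 10 in cKO 2, against 32 in floxed, with ratios of 0.571 (0.310 to 1.03) in cKO 1 and 0.300 (0.132 to 0.626) in cKO 2. Tekt5, known from sperm, had 2.15 CPM in cKO 1 and 1.61 CPM in cKO 2, against 2.35 CPM in floxed.

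The central apparatus, the pair of single microtubules and its projections, summed to 28.5 CPM in cKO 1 and 18.6 CPM in cKO 2, against 27.4 CPM in floxed. Cfap54 had 47 counts in cKO 1 and 9 in cKO 2, against 40 in floxed, with ratios of 1.07 (0.690 to 1.68) in cKO 1 and 0.216 (0.0922 to 0.452) in cKO 2. Cfap69 had 9.58 CPM in cKO 1 and 6.83 CPM in cKO 2, against 9.19 CPM in floxed, and Spag6l, an armadillo-repeat protein of the central pair, had 5.12 CPM in cKO 1 and 3.44 CPM in cKO 2, against 5.21 CPM in floxed. The ratios in cKO 2 were 0.744 (0.585 to 0.943) for Cfap69 and 0.661 (0.473 to 0.918) for Spag6l. In cKO 2 these 3 of the 8 genes lay below floxed beyond counting error (37.5%, against 24.5% of all genes), and in cKO 1 0 did (against 16%). Hydin, a giant protein of a central pair projection, had 2.51 CPM in cKO 1 and 1.35 CPM in cKO 2, against 2.02 CPM in floxed, and Spag16, Cfap46, Cfap74 and Cfap221 likewise had intervals that included 1.

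Coiled-coil proteins measure the axonemal repeat and dock the arms. Over 6 genes their median log2 fold was 0.08 in cKO 1 and -0.25 in cKO 2, and that of the 6 tested spoke genes 0.19 in cKO 1 and -0.05 in cKO 2. Ccdc40, which forms the molecular ruler with Ccdc39, had 16.7 CPM in cKO 1 and 16.5 CPM in cKO 2, against 19.6 CPM in floxed. Its ratios were 0.851 (0.730 to 0.993) in cKO 1 and 0.842 (0.720 to 0.985) in cKO 2, and the cKO mean of 16.6 ± 0.128 CPM (SD, n = 2) lay below floxed. With TMM scaling the interval in cKO 2 included 1 (0.742 to 1.01). Ccdc39 had 15.99 CPM in cKO 1 and 11.9 CPM in cKO 2, against 14.3 CPM in floxed, and 16.9% of its exon bases lie in exons of the antisense gene Ttc14. The docking genes Ccdc114 (6.92 and 5.27 CPM in cKO 1 and cKO 2, against 6.84 CPM in floxed) and Ccdc151 (5.69 and 6.08 CPM, against 6.05 CPM), the nexin link gene Ccdc65 and the dynein attachment gene Ccdc103 had intervals that included 1.

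The other 21 Cfap genes summed to 196 CPM in cKO 1 and 188 CPM in cKO 2, against 187 CPM in floxed. Of the 19 tested, 9 lay below floxed beyond counting error in cKO 2 (47.4%, against 24.5% of all genes) and 2 of the 19 did in cKO 1 (against 16%). Cfap20 had 62.5 CPM in cKO 1 and 72.9 CPM in cKO 2, against 59.4 CPM in floxed, and Cfap36 had 62.8 CPM in cKO 1 and 66.0 CPM in cKO 2, against 56.1 CPM in floxed. The ratios of Cfap36 were 1.12 (1.03 to 1.22) in cKO 1 and 1.18 (1.08 to 1.28) in cKO 2, and that of Cfap20 was above 1 beyond counting error in cKO 2 alone (1.23, 1.13 to 1.33). Cfap97 had 15.2 CPM in cKO 1 and 15.4 CPM in cKO 2, against 13.7 CPM in floxed, and both intervals included 1.

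Cfap65, known from the sperm flagellum, had 84 counts in cKO 1 and 35 in cKO 2, against 113 in floxed. Its ratios were 0.680 (0.506 to 0.909) in cKO 1 and 0.297 (0.197 to 0.438) in cKO 2, and the fit over both gave -1.02 on the log2 scale (SE 0.54, edgeR adjusted p = 1). Cfap57, which takes part in inner arm assembly, had 12 counts in cKO 1 and 11 in cKO 2, against 26 in floxed, with ratios of 0.422 (0.194 to 0.866) in cKO 1 and 0.406 (0.181 to 0.851) in cKO 2. Both cKO libraries lay below floxed for these genes, and also for Cfap70 (1.54 and 0.861 CPM in cKO 1 and cKO 2, against 2.30 CPM in floxed) and Cfap45 (1.90 and 1.56 CPM, against 2.69 CPM), whose ratios left out 1 in cKO 2 alone. All of these comparisons rest on the same floxed library, so the ratios of cKO 1 and cKO 2 are not independent of each other.

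Cfap126, which takes part in placing basal bodies, had 134 counts in cKO 1 and 42 in cKO 2, against 112 in floxed, with ratios of 1.09 (0.845 to 1.42) in cKO 1 and 0.360 (0.246 to 0.518) in cKO 2. Cfap206 and Cfap52 had ratios in cKO 2 of 0.414 (0.239 to 0.695) and 0.458 (0.259 to 0.787), and of 0.896 and 1.02 in cKO 1 with intervals that included 1. Cfap43 had 17.2 CPM in cKO 1 and 11.9 CPM in cKO 2, against 16.6 CPM in floxed. Its partner in the dynein tether, Cfap44, had 89 counts in cKO 1 and 28 in cKO 2, against 52 in floxed, so its ratio was above 1 in cKO 1 (1.56, 1.10 to 2.25) and below 1 in cKO 2 (0.517, 0.314 to 0.834). Of the rest, Cfap53, Cfap61, Cfap73, Cfap77, Cfap100, Cfap157 and Cfap161 had intervals that included 1 in both. Cfap58 had 9 counts in cKO 1 and 0 in cKO 2, against 5 in floxed, and Cfap99 had 0 counts in cKO 1 and 3 in cKO 2, against 5 in floxed. A count of 0 allows a level of up to 0.154 CPM in cKO 1 and 0.161 CPM in cKO 2, and neither gene was tested.

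Set directly against each other, the cKO libraries differed in many members. Of the 63 tested, 26 were lower in cKO 2 than in cKO 1 beyond counting error (41.3%, against 27.3% of all genes) and 2, Cfap20 and Dnah7a, were higher (3.17%, against 17%). This comparison does not use the floxed library. It sets 1 library of a genotype against another of the same genotype.

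Genes of the motile axoneme and its assembly that the naming rule had missed had fewer CPM than floxed in 36 of 47 cases in cKO 2 (76.6%, against 56.5% of all genes) and in 23 of 47 in cKO 1 (48.9%, against 47.6%). The list named 56 genes, and the 47 tested ones had median log2 folds of 0.03 (cKO 1) and -0.45 (cKO 2). In cKO 2, 14 were lower beyond counting error (29.8%, against 24.5% of all genes) and 2 higher (4.26%, against 16.1%), and 13 were lower by over 2-fold (27.7%, against 6.72%). In cKO 1, 5 were lower (10.6%, against 16%) and 2 higher (4.26%, against 17.8%) beyond counting error, and 0 were lower by over 2-fold (against 1.54%). Ak7, an adenylate kinase of the axoneme, had 3.13 CPM in cKO 1 and 0.915 CPM in cKO 2, against 3.92 CPM in floxed, and Drc7, of the nexin-dynein regulatory complex, had 2.61 CPM in cKO 1 and 1.02 CPM in cKO 2, against 2.75 CPM in floxed. Gas8, of the same complex, had 55.5 CPM in cKO 1 and 59.4 CPM in cKO 2, against 61.0 CPM in floxed, and its interval in cKO 2 included 1.

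Genes of ciliary transport and of the primary cilium had median levels near floxed in both cKO libraries. The 40 genes of intraflagellar transport and the BBSome, which carry cargo along the cilium, had median log2 folds of 0.03 (cKO 1) and -0.04 (cKO 2), and a range from -0.49 to 0.40 in cKO 2. By over 2-fold, 0 of the 40 were lower in cKO 1 (against 1.54% of all genes) and 0 in cKO 2 (against 6.72%). The 40 genes summed to 1321 CPM in floxed, against 458 CPM for the 66 members, so their levels were higher. The 23 primary cilium and transition zone genes had medians of -0.04 in cKO 1 and 0.00 in cKO 2, and a range from -0.55 to 0.45 in cKO 2. In cKO 2, 8 of the 40 and 5 of the 23 were lower beyond counting error, or 20% and 21.7%, against 24.5% of all genes. By the same measure 5 of the 40 and 3 of the 23 were higher in cKO 2 (12.5% and 13%, against 16.1%). In cKO 1, 9 of the 40 and 1 of the 23 were higher (22.5% and 4.35%, against 17.8%). Lower in cKO 1 were 5 of the 40 and 3 of the 23 (12.5% and 13%, against 16%).

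**Figure D4:**
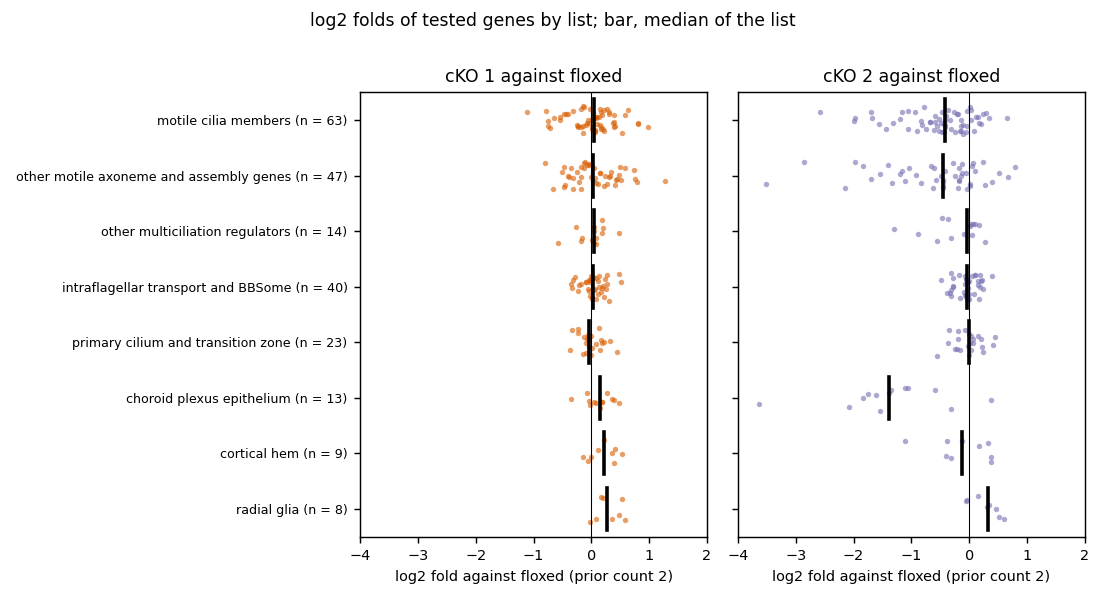
log2 fold against floxed of each tested gene in 8 lists (prior count of 2, scaled to library totals) for cKO 1 on the left and cKO 2 on the right; a point is a gene and the black bar is the median of the list. In cKO 2 the medians are -0.42 for the motile cilia members, -0.04 for intraflagellar transport and the BBSome, and -1.38 for the choroid plexus epithelium, while in cKO 1 they are 0.04, 0.03 and 0.15.

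Markers of the choroid plexus epithelium, which bears motile cilia, were lower in cKO 2, and so were markers of some other cell types. Of 15 listed genes 13 were tested, with median log2 folds of 0.15 (cKO 1) and -1.38 (cKO 2), and those below floxed beyond counting error numbered 1 in cKO 1 (7.69%, against 16% of all genes) and 11 in cKO 2 (84.6%, against 24.5%). Ttr, the transthyretin gene that the epithelium expresses at very high levels, had 972 CPM in cKO 1 and 295 CPM in cKO 2, against 996 CPM in floxed. The water channel gene Aqp1 had 25.2 CPM in cKO 1 and 6.19 CPM in cKO 2, against 26.6 CPM in floxed, and Folr1, the folate receptor, had 12.3 CPM in cKO 1 and 4.20 CPM in cKO 2, against 11.1 CPM in floxed. Beyond counting error 1 marker, Otx2, was higher in cKO 1 (7.69%, against 17.8% of all genes) and 0 in cKO 2 (against 16.1%). The ratios of Otx2 were 1.32 (1.12 to 1.56) in cKO 1 and 0.657 (0.536 to 0.805) in cKO 2. The 1 tested marker above floxed in cKO 2 was Steap1 (1.34, 0.661 to 2.80). Prlr, not tested, had 5 counts in cKO 1 and 7 in cKO 2, against 2 in floxed. The whole marker list summed to 1119 CPM in cKO 1 and 347 CPM in cKO 2, against 1132 CPM in floxed. Ttr made up most of each sum, and no marker was at 0 in any library. The part of the choroid plexus in the levels of the cilia genes was not tested, and in such bulk samples fewer cells of a type and less RNA per cell cannot be told apart. Cortical hem markers, from the tissue next to the choroid plexus, had medians of 0.22 in cKO 1 and -0.13 in cKO 2 over 9 genes. Beyond counting error, 3 were lower (33.3%, against 24.5% of all genes) and 2 higher (22.2%, against 16.1%) in cKO 2. Medians in cKO 2 were also below 0 for the meningeal (-4.30), endothelial (-0.82) and red blood cell (-0.44) markers. They were 0.65 for Cajal-Retzius cells, 0.32 for radial glia and 0.00 for cortical neurons.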

How the data were processed

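RNA was extracted with Trizol from dissected cerebral cortex, and 2 µg per sample went into Illumina TruSeq libraries, a kit that does not mark strand, per the labels' protocols. The authors deposited raw counts per gene in 2 tables, each setting a cKO column beside the same floxed column, which held identical counts and was used once. The column names carry KO or WT like the sample titles, without showing which sample of a group each column is. The labels list 2 samples per group, and the other floxed sample was not analysed here. Per the submitters' processing notes, the tools were HTSeq 0.6.0, TopHat2 2.0.12 and Bowtie2 2.2.3 and the build mm9, although the positions in the tables are those of GRCm38: in GENCODE M21 all 66 members had a gene of equal ID at an overlapping position. The authors' CPM values are counts over a library total, with 0 replaced by 0.5, and this total gave the CPM used here. The authors' fold is the ratio of these CPM values, the authors' log2 fold is its logarithm, and no source used here names the test behind the authors' p-values.

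The members and gene lists were chosen with earlier results of these data known. The 19968 genes in both tables were fitted with edgeR 4.0.16 in R 4.3.3 (minimum count 10, TMM, quasi-likelihood test, 1 residual degree of freedom), with DESeq2 1.42.0 and limma-voom 3.58.1 as alternatives. Standard errors (SE) are the size of the fitted log2 fold over the square root of F. Ratios of counts carry exact conditional binomial (Clopper-Pearson) 95% intervals. The reads hold no molecular identifiers, so intervals and the limit of 3 counts for a count of 0 cover counting error only. Genes were named by role (all 5 regulators), by level (the 2 highest of a class), by fold (the 6 lowest and 6 highest in each cKO library among members of at least 30 counts) and by counts of 0, and the rest were added after their values were seen. Scripts were tested on simulated counts.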

Additional observations from a re-analysis of the deposited data

How the results depend on the processing

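The members' medians kept their direction under TMM or DESeq2 scaling, other filters, log2(CPM + 0.5) and without the 5 members that share reads, between -0.43 and -0.26 in cKO 2 and between 0.03 and 0.05 in cKO 1. The median fitted log2 fold was -0.17 and lay between -0.39 and 0.04 when cKO 1 or cKO 2 was left out, so its sign rests on cKO 2. Counts of members depend on the scaling and the threshold. With TMM or DESeq2 size factors, the members below floxed beyond counting error numbered 19 in cKO 2, in place of 25, and 6 in cKO 1, as with library totals. At 1.5-fold in place of 2-fold, 22 members were lower and 1 higher in cKO 2, and 6 were lower and 5 higher in cKO 1. With a 99% interval, 14 were lower in cKO 2 and 2 in cKO 1. The shares over all genes at 1.5-fold and with the 99% interval are not given, so these counts cannot be set against them. The fitted sign turned for Cfap44 (-0.11, against 0.07) and Dnaic2 (-0.0155, against 0.0372) under limma-voom and for Tekt1 (-0.0128, against 0.00415) with library totals. The cause was not tested. No alternative fit called a member. No paired analysis was possible because the tables hold a single floxed column, and leaving out a cKO library leaves 1 library against 1, a value with no test. With a median of 55, 30 and 48 counts per member in cKO 1, cKO 2 and floxed, depth limits most single genes to large differences.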

Other observations

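Motile cilia genes listed in a single table, and so outside the comparisons above, had few counts. Dnah12 had 15 counts in cKO 1 and 4 in floxed, Spag17 had 6 in cKO 1 and 0 in floxed, and Dnah3 had 4 in cKO 1 and 1 in floxed. Tekt3, listed with cKO 2, had 1 count there and 2 in floxed.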
